A study of Mus musculus with 12 samples.

Results

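Lineage-negative bone marrow of mice labelled Tet2+/- (here Tet2het) was compared with that of wild type mice (WT) by RNA-seq counts per gene. The comparison rests on 6 of the 11 libraries used from the series: Tet2het replicates 1 to 3 and WT replicates 1 to 3. All mice were of the C57BL/6 strain, and no age, treatment or time point is given in the labels. The other 5 libraries, labelled Ins2Akita/+ (Akita, n = 2) and Tet2+/-;Ins2Akita/+ (the double mutant, n = 3), took part in the filter on low counts and in the estimate of the spread between libraries. Their own levels are given beside some of the results. The labels do not say how the Tet2 allele was made, which part of the gene it lacks, or whether a library holds 1 mouse or several. The table holds 31060 genes, of which 15630 passed a filter on low counts and were tested with all libraries, and 15092 were tested after the libraries numbered 3 had been left out. The question was which genes differ in level with the Tet2 allele alone.

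Tet2 is a dioxygenase that oxidises 5-methylcytosine in DNA, mainly where a cytosine is followed by a guanine (CG), and so takes part in the removal of DNA methylation. In blood-forming cells its loss of function is known from clonal haematopoiesis and myeloid tumours, and mice that lack it have an enlarged pool of stem and progenitor cells. The lineage-negative fraction is what remains of marrow when cells with surface markers of mature blood lineages have been removed. It holds stem cells, the progenitors of each lineage and the early precursors that have not yet gained those markers.

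The 6 libraries had 14814409 to 20711259 counts in all. Levels are given as CPM, counts scaled to a common library size. For a gene without a count, 3 counts set the upper limit, 0.142 to 0.181 CPM in these libraries, which covers counting error only. Replicate 3 of both groups stood apart from replicates 1 and 2: mitochondrially encoded genes took 3.43% and 4.46% of its counts in WT and Tet2het, against 1.36% to 1.87% in the 4 others. The median standard error of a log2 difference was 0.40 with all libraries and 0.22 without the libraries numbered 3. Calls and list medians are therefore given with and without the libraries numbered 3. The labels do not tell whether replicates are different mice, and the p-values then cover the spread between these libraries alone, which may be technical.

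The level of Tet2 itself was read beside the labels. It cannot settle whether they hold, since how the allele was made, and so how far it should lower the counts, is not given. Tet2 (ENSMUSG00000040943.12) lies on the minus strand of GRCm38 chromosome 3 between 133463679 and 133545139 and had 1811, 2573 and 746 counts in WT replicates 1 to 3 and 400, 312 and 400 in Tet2het. On the scale of library size these are 91.2, 128 and 45.1 CPM in WT and 18.96, 18.5 and 19.3 CPM in Tet2het. The Tet2het libraries were nearly equal to each other and all lay below the lowest WT library, while WT itself spread over a wide range, lowest in replicate 3. Within a replicate number Tet2het was at 20.8%, 14.5% and 42.8% of WT. The log2 difference was -2.22 (SE 0.45) with all libraries, which was not called by edgeR's quasi-likelihood test with Benjamini-Hochberg adjustment (adjusted p = 0.505). Without the libraries numbered 3 it was -2.55 (SE 0.26) and was called lower by edgeR (adjusted p = 0.0162); it was not called there when Tet2het replicate 1 (adjusted p = 0.0529), Tet2het replicate 2 (0.227) or WT replicate 2 (0.0684) was also left out. With the replicate number as a block in the fit of all groups it was -2.05 and not called (edgeR adjusted p = 0.186), and with the block in a fit of only the Tet2het and WT libraries, chosen after seeing the data, it was -2.11 (edgeR adjusted p = 0.0444). In the libraries labelled double mutant, which carry the same Tet2 genotype in their label, Tet2 stood at 66.5, 108 and 34.2 CPM. Each of them lay above every Tet2het library and below the WT library of the same number, and their range overlapped that of WT. The pseudogenes called with all libraries, described below, were high in these 3 libraries as in Tet2het. That fit took its spread from these libraries too, so genes that varied among them were less likely to be called. Of 11 genes near 0 in WT and high in every Tet2het library, 3 were at 20 or more counts in each of these libraries. Why Tet2 was less low in them than in Tet2het was not tested.

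The stretch of 250 bases before the start site of Tet2, where transcription is set going, is dense in the CG pairs on which the enzyme acts. It is printed here 5′ to 3′ on the minus strand of chr3:133544391-133544640 (RefSeq, GRCm38.p6), with each CG in capitals. The RefSeq start site used here lies inside the outer bounds of the gene given above, which other transcripts reach.
Tet2: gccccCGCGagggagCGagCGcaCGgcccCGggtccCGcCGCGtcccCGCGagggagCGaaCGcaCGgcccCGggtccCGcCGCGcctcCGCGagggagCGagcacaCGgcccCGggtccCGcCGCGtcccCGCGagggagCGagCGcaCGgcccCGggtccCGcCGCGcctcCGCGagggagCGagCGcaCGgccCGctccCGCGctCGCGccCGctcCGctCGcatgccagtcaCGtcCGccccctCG
It holds 51 CG pairs, more than 99.9% of the 10820 promoters of that length that could be matched to tested genes, whose median was 15 and whose middle range ran from 8 to 22. Of those promoters 98.5% hold at least 1 CG.

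No other enzyme or reader of DNA methylation was called. Of the 25 genes of that list 22 were tested, and Tet2 was the 1 called in the fit without the libraries numbered 3. Its sister enzymes were Tet1, at 6.45, 7.42 and 13.7 CPM in WT and 8.72, 5.10 and 8.99 CPM in Tet2het, and Tet3, at 106, 130 and 90.01 against 118, 68.7 and 90.1 CPM. Both groups overlapped for each of them. Dnmt1, which copies methylation onto new DNA strands, was at 250, 292 and 321 CPM in WT and 285, 171 and 404 CPM in Tet2het, and its partner Uhrf1 at 260, 251 and 335 against 246, 159 and 481 CPM. For both, Tet2het replicate 2 was the lowest and Tet2het replicate 3 the highest of the 6 libraries. Dnmt3a and Dnmt3b, which set methylation anew, had log2 differences of -0.13 (SE 0.19) and -0.05 (SE 0.35). Tdg, the glycosylase that cuts out the oxidised bases made by Tet enzymes, was at 57.9, 48.6 and 57.8 CPM in WT and 33.6, 44.6 and 52.9 CPM in Tet2het (log2 difference -0.32, SE 0.20). Over the 22 genes the median log2 difference was -0.057 with all libraries, beside 0.034 over all genes tested, and -0.092 without number 3.

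Few genes were called with all libraries or without the libraries numbered 3, and the count varied with the setting. Few calls do not show that few genes differ, since the spread between libraries was wide. Other differences between the groups of mice cannot be told apart from the Tet2 allele. With all libraries 4 of 15630 genes were called (0.0256%), all higher in Tet2het, and 332 had an unadjusted p under 0.05 (2.12%), 153 higher (0.979%) and 179 lower (1.15%). Without the libraries numbered 3 the call count was 22 of 15092 (0.146%), with 16 higher (0.106%) and 6 lower (0.0398%). The 22 include the 4. The excess of higher calls did not hold in every setting of that fit: DESeq2 called 47 higher and 83 lower, and edgeR with no filter on low counts 84 higher and 102 lower. In that fit 1039 genes had an unadjusted p under 0.05 (6.88%), 498 higher (3.3%) and 541 lower (3.58%). When the replicate number was added as a block, 8 genes were called in the fit of all groups (0.0512%), 7 higher (0.0448%) and 1 lower (0.0064%). The same block in a fit of only the Tet2het and WT libraries, an alternative chosen after seeing the data, called 33 of 14458 genes (0.228%), with 23 higher (0.159%) and 10 lower (0.0692%). All 8 were among the 33. Single libraries weighed on these counts. Leaving out any WT replicate reduced the 4 calls to 1, while leaving out Tet2het replicate 3 or the library labelled double mutant replicate 3 gave 7. Leaving out WT replicate 1, WT replicate 2 or Akita replicate 2 as well as number 3 gave 7, 6 and 14 calls, of which 6, 5 and 14 were among the 22. Leaving out Tet2het replicate 1 there gave 286 calls, 81 higher and 205 lower, with 21 of the 22 among them. The median absolute log2 difference over all genes was 0.18 with all libraries and 0.19 without number 3.

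**Figure D1:**
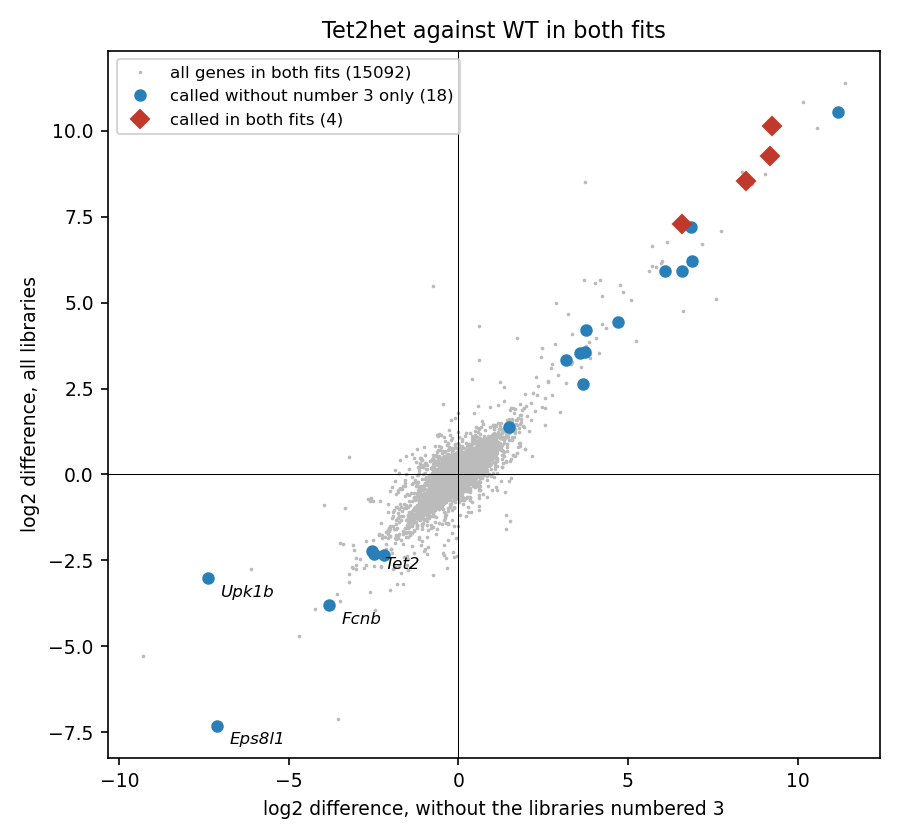
Log2 difference of Tet2het against WT for each of the 15092 genes tested in both fits, without the libraries numbered 3 (horizontal axis) and with all libraries (vertical axis). Red diamonds are the 4 genes called in both fits and blue circles the 18 called only without number 3; grey points are all genes, most of them close to 0 on both axes.

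Fcnb was the most abundant gene called lower. It encodes ficolin B, a lectin of the complement system placed here in the list of neutrophil primary granule genes (ENSMUSG00000026835.15, chromosome 2, 28076378 to 28084885, minus strand). It had 7428, 6920 and 99 counts in WT against 631, 363 and 8 in Tet2het, that is 374, 345 and 5.99 CPM against 29.9, 21.5 and 0.387 CPM. Both libraries numbered 3 were low, but within each number Tet2het was far below WT, at 7.99%, 6.25% and 6.45% of it. The log2 difference without number 3 was -3.80 (SE 0.30; edgeR adjusted p = 0.00301), and with all libraries it was -3.81 with an SE of 1.70 and was not called. With the replicate block it was called lower by edgeR both with all groups (adjusted p = 0.00135) and with only Tet2het and WT (adjusted p = 2.11e-04). Outside this comparison Fcnb stood at 307, 497 and 10.5 CPM in the libraries labelled double mutant and at 440 and 316 CPM in Akita. The double mutant libraries, which share the Tet2 genotype in their label, were thus not low in Fcnb as Tet2het was. Mpo, the myeloperoxidase of primary granules, was at 5535, 7351 and 1148 CPM in WT and 6283, 4502 and 458 CPM in Tet2het. Over the 16 tested genes of the primary granule list Fcnb was the 1 called, and the list's median log2 difference without number 3 was -0.22. The summed level of that list was 3437 to 16800 CPM in WT and 1983 to 14090 CPM in Tet2het. In bulk samples, fewer cells of a type and less RNA per cell cannot be told apart.

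The 250 bases before the start of Fcnb are at the other end of the scale from those of Tet2. They are printed 5′ to 3′ on the minus strand of chr2:28084879-28085128 (RefSeq, GRCm38.p6), again with any CG in capitals.
Fcnb: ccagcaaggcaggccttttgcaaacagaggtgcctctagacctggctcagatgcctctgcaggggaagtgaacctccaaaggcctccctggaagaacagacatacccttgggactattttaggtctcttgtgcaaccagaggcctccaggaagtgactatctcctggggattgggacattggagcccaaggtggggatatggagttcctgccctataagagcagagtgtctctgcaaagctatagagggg
No CG was found there. Of the 5 genes called lower without number 3 whose promoter was in the table, Tet2 held 51, Ncs1 34, Rusc2 26, Eps8l1 14 and Fcnb 0 at the first listed start site. These counts describe the letters of the window and were not tested against the change.

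The other 4 genes called lower were of much lower level. Eps8l1, a relative of the actin regulator Eps8, had 98, 82 and 170 counts in WT against 1, 0 and 1 in Tet2het. The groups did not overlap, and Tet2het was near 0 in all 3 libraries. The WT to Tet2het ratio was 182, with a 95% counting interval of 49.9 to 1510, and without number 3 the gene was called lower by edgeR (adjusted p = 0.00301); with all libraries it was not (adjusted p = 0.505). In the libraries labelled double mutant it had 81, 63 and 0 counts, a spread that enters the estimate with all libraries. Ncs1, a calcium sensor first described in neurons, had 130, 135 and 64 counts in WT against 27, 27 and 10 in Tet2het, so every Tet2het library was below every WT library. Its log2 difference was -2.20 without number 3 (SE 0.25; edgeR adjusted p = 0.0233) and -2.35 with all libraries (SE 0.67). Rusc2, an adaptor with a RUN and an SH3 domain, had 81, 95 and 99 counts in WT against 13, 16 and 29 in Tet2het. It had the smallest p of the genes lower with all libraries (log2 difference -2.31, SE 0.38; edgeR adjusted p = 0.257), and was called without number 3 (-2.50, SE 0.33; edgeR adjusted p = 0.0398). Upk1b, a uroplakin of the bladder lining, had 25, 18 and 47 counts in WT against 0, 0 and 12 in Tet2het. Without number 3 it was at least 6.73-fold lower, taking 3 counts in each Tet2het library as the floor, and was called by edgeR (adjusted p = 0.0403). When each of the 8 libraries of that fit was left out in turn, Eps8l1 was called in 8 fits, Fcnb in 7, Ncs1 in 4, and Rusc2 and Upk1b in 1 each. Counts in the libraries labelled double mutant were 114, 93 and 13 for Ncs1, 60, 44 and 28 for Rusc2, and 7, 7 and 6 for Upk1b.

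**Figure D2:**
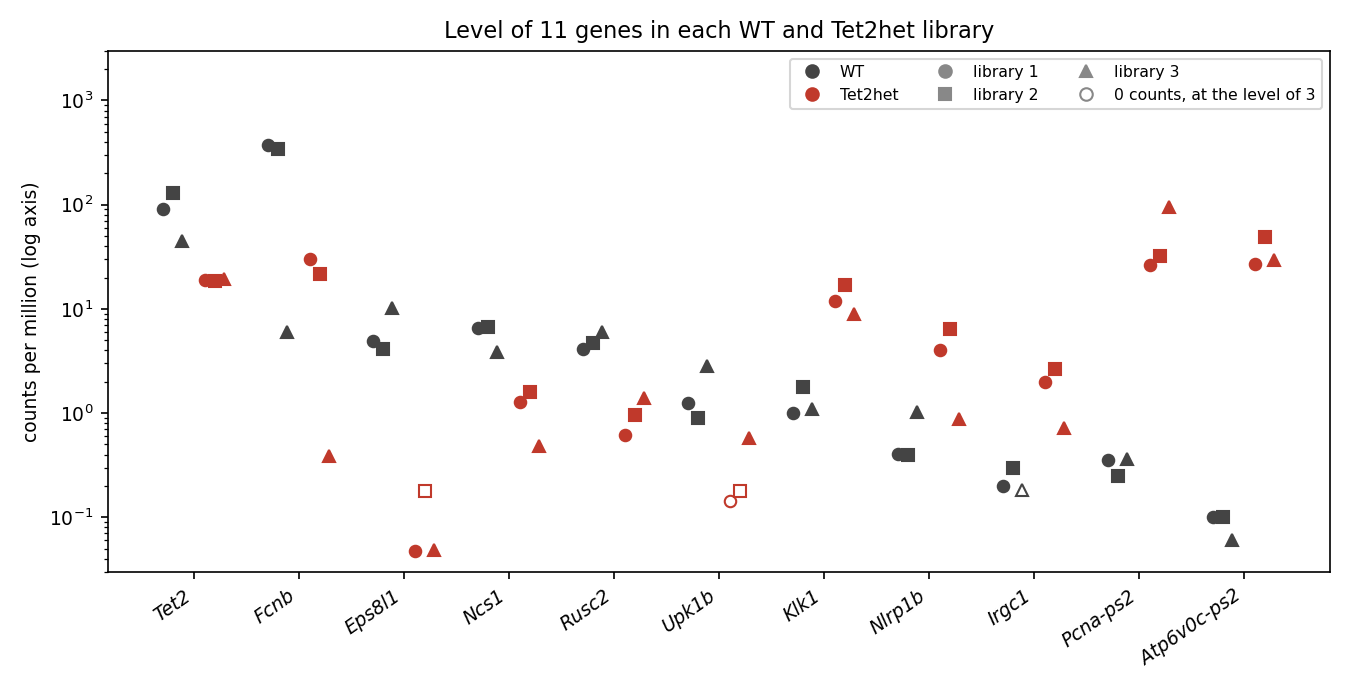
Level (CPM, log axis) of 11 genes, WT in grey and Tet2het in red, with circles, squares and triangles for replicates 1, 2 and 3; an open symbol is a library with 0 counts, drawn at the level that 3 counts would give. Tet2 and Ncs1 are lower in every Tet2het library, Fcnb is lower within each number although both libraries numbered 3 are low, and both pseudogenes on the right are near the floor in WT only.

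The genes called higher were mostly processed pseudogenes, the intronless copies of a messenger RNA that are scattered over the genome. They made up 348 of the genes tested with all libraries, all 4 of the calls with all libraries, 10 of the 16 higher calls without number 3 and 13 of the 23 higher calls with the block in the fit of Tet2het and WT. No processed pseudogene was called lower in any of these fits. Genes with an unadjusted p under 0.05 made up 12.6% of them with all libraries, beside 2.12% of all genes and 1.48% of protein-coding genes. Without number 3 the shares were closer, 13.5% beside 6.88% and 6.51%. Their counts are uncertain, since a read may fit the parent gene as well, and how the authors' counting treated such reads is not given in the sources used here. A copy with almost no count in WT could pass the filter on low counts only through groups where it was high. The shares and directions above are therefore a description only.

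Each of the 17 processed pseudogenes called in any of the 4 fits could be aligned to the messenger RNA of a parent gene. For the 4 called with all libraries the copy is nearly the same as the parent: Atp6v0c-ps2 differs from Atp6v0c at 1 of 465 bases, Gm14292 from Wtap at 3 of 456, Gm9825 from Rnps1 at 5 of 843 and Pcna-ps2 from Pcna at 6 of 781. A stretch of 60 bases around such differences is shown for each copy above its parent, 5′ to 3′, with the bases that differ in capitals, because reads can be told apart only where they cover such a base. The copies lie at chr6:37806137-37806196 (plus strand), chr2:179177638-179177697 (plus), chr6:7982874-7982933 (minus) and chr19:9283496-9283555 (plus) of GRCm38, in that order.
Atp6v0c-ps2: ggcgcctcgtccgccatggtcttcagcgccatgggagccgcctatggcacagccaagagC
Atp6v0c: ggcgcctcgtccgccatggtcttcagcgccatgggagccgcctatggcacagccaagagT
Gm14292: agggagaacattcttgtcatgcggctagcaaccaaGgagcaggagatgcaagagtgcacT
Wtap: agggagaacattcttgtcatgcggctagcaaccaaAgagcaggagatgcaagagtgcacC
Gm9825: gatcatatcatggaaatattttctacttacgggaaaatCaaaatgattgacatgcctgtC
Rnps1: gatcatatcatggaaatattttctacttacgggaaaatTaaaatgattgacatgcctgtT
Pcna-ps2: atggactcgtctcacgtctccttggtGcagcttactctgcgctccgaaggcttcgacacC
Pcna: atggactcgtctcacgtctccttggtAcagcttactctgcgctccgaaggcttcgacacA

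Pcna-ps2 (ENSMUSG00000067608.4), a copy of the gene of the replication clamp, stood at 0.353, 0.249 and 0.363 CPM in WT and 26.4, 32.4 and 94.0 CPM in Tet2het. Tet2het was above WT in every library, and replicate 3 was the highest. Its log2 difference was 7.29 (SE 0.65; edgeR adjusted p = 0.00524) with all libraries and 6.58 (SE 0.26; edgeR adjusted p = 5.85e-05) without number 3. Pcna itself was at 330, 301 and 371 CPM in WT and 282, 316 and 473 CPM in Tet2het, a log2 difference of 0.09 (SE 0.22). Atp6v0c-ps2 (ENSMUSG00000080242.5), a copy of a subunit of the proton pump of lysosomes, was at 27.2, 49.2 and 29.5 CPM in Tet2het and at 0.101, 0.0996 and 0.0605 CPM in WT. It was called by edgeR in both fits (adjusted p = 6.18e-04 with all libraries and 0.00301 without number 3), and Atp6v0c had a log2 difference of -0.20 (SE 0.39). Gm9825, a copy of the splicing factor gene Rnps1, had 0, 1 and 0 counts in WT against 245, 447 and 909 in Tet2het, a ratio of 1540 with a 95% counting interval of 276 to 60900. Gm14292, a copy of Wtap, which encodes a subunit of the RNA methyltransferase for N6-methyladenosine, had no count in WT and 56, 83 and 96 in Tet2het. It was at least 25.3-fold higher, with 3 counts per WT library as the floor. In libraries outside this comparison the same 4 copies were low in Akita, at 0 to 11 counts, and high in those labelled double mutant. Pcna-ps2 had 502, 531 and 819 counts in the latter, Atp6v0c-ps2 549, 752 and 655, Gm9825 250, 227 and 390, and Gm14292 38, 49 and 57. Those libraries entered the spread by which the 4 copies were called, so even levels there favoured a call. The parents Rnps1 and Wtap had log2 differences of 0.07 (SE 0.21) and 0.15 (SE 0.26), and neither was called. With each of the 11 libraries left out in turn, Atp6v0c-ps2 was called in 11 fits, Pcna-ps2 and Gm9825 in 8 and Gm14292 in 2.

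The same on-off pattern was seen for further copies that only some fits called. Rps13-ps1 was the most abundant of them, with 2, 1 and 0 counts in WT against 2046, 1538 and 2894 in Tet2het, a ratio of 2080 with a 95% counting interval of 711 to 10100. It was called with the block in the fit of Tet2het and WT (edgeR adjusted p = 7.29e-05) and not with all libraries (edgeR adjusted p = 0.304). In the libraries labelled double mutant it had 3, 817 and 1083 counts, and this spread enters the estimate with all libraries. Gm13394, a copy of Gapdh with 1 base of 1000 different, had no count in WT and 507, 175 and 391 in Tet2het. It was at least 111-fold higher and was called with the same block (edgeR adjusted p = 0.00364). Rpl3-ps1, a copy of a ribosomal protein gene on chromosome X, had 4, 6 and 6 counts in WT against 196, 273 and 578 in Tet2het (edgeR adjusted p = 3.96e-04 with that block). Gm11224, Gm7887 and Rpl34-ps2, copies of Eif3c, Pcnp and Rpl34, were called higher with it too.

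Some copies were high in Tet2het replicates 1 and 2 only. Gm6166, a copy of the fatty acid binding protein gene Fabp5, had no count in WT and 219, 330 and 0 in Tet2het. Rpl15-ps2, Gm8420 and Gm5292, all copies of the ribosomal protein gene Rpl15, had 162, 215 and 4, then 120, 128 and 1, then 77, 67 and 0 counts in Tet2het, and at most 2 in any WT library. All 4 were called higher without number 3 by edgeR (adjusted p = 0.00301 to 0.0284), and none with all libraries. For these 4 the Tet2het library numbered 3 was like WT. Tdg-ps and Gm9855, copies of Tdg, had 200, 85 and 139, and 251, 71 and 178 counts in Tet2het, against 4, 7 and 7, and 13, 4 and 5 in WT. Rps2-ps10 had 216, 399 and 962 counts in Tet2het against 31, 19 and 31 in WT (log2 difference 4.20, SE 0.73; edgeR adjusted p = 0.304 with all libraries and 0.0446 without number 3). The parents Tdg and Rps2 were lower in Tet2het without being called, with log2 differences of -0.32 (SE 0.20) and -0.53 (SE 0.25). With each of the 8 libraries of the fit without number 3 left out in turn, Gm6166 was called in 8 fits, Rpl15-ps2, Gm8420 and Tdg-ps in 6, Gm5292 in 3 and Rps2-ps10 in 1. Whether reads moved between a parent and its copy was not tested.

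Of the protein-coding genes 6 were called higher without number 3, and none with all libraries. The 5 described here had low or no counts in WT. Nlrp1b, a sensor that starts inflammasome assembly, had 8, 8 and 17 counts in WT against 85, 109 and 18 in Tet2het, with replicate 3 of both groups alike. Its log2 difference was 3.69 (SE 0.41; edgeR adjusted p = 0.0186) without number 3. Its neighbour and close relative Nlrp1a, named after its values were seen, was at 2.02, 3.19 and 1.69 CPM in WT and 1.61, 0.356 and 0.531 CPM in Tet2het (log2 difference -1.45, SE 0.57). Apol7b, of the apolipoprotein L family, had 11, 7 and 4 counts in WT against 83, 139 and 35 in Tet2het (log2 difference 3.73, SE 0.49; edgeR adjusted p = 0.0403 without number 3). Pianp, a ligand of the receptor PILR alpha known from nerve tissue, had 8, 5 and 5 counts in WT against 104, 51 and 68 in Tet2het (log2 difference 3.59, SE 0.44; edgeR adjusted p = 0.0290 without number 3). Irgc1, of the family of immunity-related GTPases, had 4, 6 and 0 counts against 42, 45 and 15. Gm12666, annotated as coding with no known role given here, had 1, 0 and 0 counts in WT against 86, 55 and 70 in Tet2het. Their Tet2het libraries lay above every WT library. Both were called without number 3 by edgeR (adjusted p = 0.0472 and 0.0290). With each of the 8 libraries left out in turn, Nlrp1b was called in 6 fits, Gm12666 in 5, Pianp in 4, and Apol7b and Irgc1 in 1 each. Most of these genes were not raised to the same degree in the libraries labelled double mutant. Nlrp1b had 16, 15 and 6 counts there, Apol7b 8, 11 and 18, and Pianp 3, 5 and 124. Irgc1 had 12, 9 and 6, and Gm12666 had 1, 0 and 2.

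The block in the fit of Tet2het and WT added coding genes with low or no counts in WT. Klk1, the tissue kallikrein that releases kinins, had 20, 36 and 18 counts in WT against 251, 286 and 184 in Tet2het (log2 difference 3.27; edgeR adjusted p = 0.00676). Its neighbour Klk1b27, of the same gene cluster on chromosome 7, had 2, 0 and 1 counts in WT against 21, 22 and 23 in Tet2het and was not called. Eif3j2, a near copy of a translation initiation subunit gene, had 5, 1 and 2 counts in WT against 207, 207 and 544 in Tet2het (edgeR adjusted p = 0.00324). Its partner copy Eif3j1, named after its values were seen, was at 64.4, 66.7 and 74.0 CPM in WT and 49.2, 47.0 and 45.5 CPM in Tet2het (log2 difference -0.53, SE 0.23), and was not called. Prss41, a serine protease, had 1, 2 and 3 counts in WT against 19, 31 and 55 in Tet2het (edgeR adjusted p = 0.0356). All of these groups were apart. Counts in the libraries labelled double mutant were 2, 10 and 14 for Klk1, 184, 24 and 251 for Eif3j2, and 23, 8 and 40 for Prss41. Among non-coding genes the same block called Gm12840 lower, with 2134, 1658 and 921 counts in WT against 971, 471 and 509 in Tet2het (log2 difference -1.33; edgeR adjusted p = 0.0256), and 1700006J14Rik, an antisense transcript with 123, 77 and 416 against 12, 8 and 75; Gm47854, a long non-coding RNA, was called higher. Without strand, reads of an antisense gene cannot be told from those of its partner. Members of families with near-identical copies, such as these, may share reads.

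Replicate 3 was not used to choose the 22 genes called without number 3. Within it the 6 genes called lower were all lower in Tet2het, Fcnb at 8 counts against 99 and Eps8l1 at 1 against 170. Over all 15092 genes of that fit 52.5% had the same direction in replicate 3, and 56.8% of the uncalled genes with an unadjusted p under 0.05. Of the 16 called higher, 12 were higher there. This says little of its own, since 13 of the 16 had at most 10 counts in WT replicate 3 and could hardly have been lower in Tet2het, so the count is a description only. The exceptions were Gm6166 and Gm5292 at 0 counts in both libraries, Gm8420 at -0.11 and Nlrp1b at -0.22, and Rpl15-ps2 was higher by 0.40 only.

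**Figure D3:**
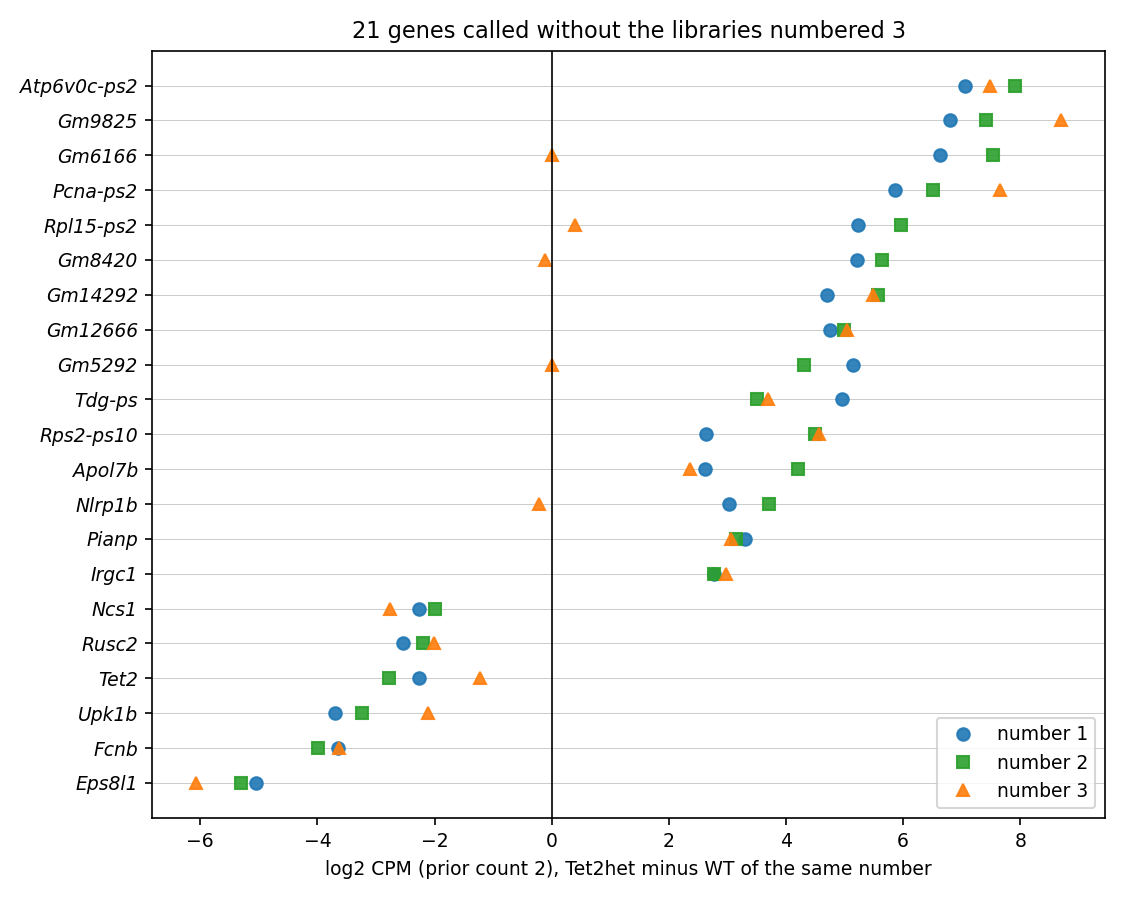
Difference in log2 CPM (prior count 2) between Tet2het and WT of the same replicate number for 21 of the 22 genes called without the libraries numbered 3; circles, squares and triangles are numbers 1, 2 and 3. The triangles were not used to choose the genes: they lie beside the other symbols for most genes and at or near 0 for Gm6166, Rpl15-ps2, Gm8420, Gm5292 and Nlrp1b.

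Near-complete switches between the groups were counted over all 31060 genes of the table, before any filter on low counts. At most 3 counts in each WT library with at least 20 in each Tet2het library was found for 11 genes: Atp6v0c-ps2, Gm9825, Gm14292, Rps13-ps1, Rpl34-ps2, Gm13394, Gm12666, Gbp2b, Klk1b27, Ifi44l and Igkv5-37. Of these, 6 are processed pseudogenes and 4 are coding, and they lie on 7 chromosomes. The reverse, low in Tet2het and high in WT, was found for Eps8l1 alone. Of the 11 genes, 8 were also at 3 counts or fewer in both Akita libraries, and 3 were at 20 or more in each library labelled double mutant. With the same limits applied to replicates 1 and 2 alone, 16 genes were low in WT and high in Tet2het, 11 of them processed pseudogenes, and 4 were low in Tet2het and high in WT: Eps8l1, Stfa1, the antibody segment Ighv5-15 and the pseudogene Gm13357.

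Among the kinds of gene in the annotation, segments of the antibody genes had the largest share of small p-values in both fits. Developing B cells join variable segments to a constant region to build each antibody chain. Of 213 immunoglobulin segments tested, none was called with all libraries or without number 3 (background 0.0256% and 0.146%). Those with an unadjusted p under 0.05 made up 20.2% of them with all libraries, 32 lower and 11 higher, and 24 lay below every WT library (11.3%, beside 2.18% of all genes). Their median log2 difference was -0.42. Without number 3 the share was 26.1% of 207 segments, beside 6.88% of all genes, and the median -0.77. For the heavy chain segments the median was -0.58 over 101 with all libraries and -0.97 over 99 without number 3. Their medians were -1.30, -0.28 and 0.28 within numbers 1, 2 and 3, so the direction was not the same in each number. With the block in the fit of Tet2het and WT 7 of 179 segments were called, beside 0.228% of all genes, 5 lower and 2 higher. Ighv1-22 had 290, 502 and 284 counts in WT against 46, 45 and 89 in Tet2het (log2 difference -2.65; edgeR adjusted p = 0.0180), and Ighv10-3 had 187, 281 and 194 against 33, 31 and 40 (-2.71; edgeR adjusted p = 0.0124). The other 3 lower were Ighv1-80, Ighv1-42 and Ighv9-2. Igkv5-37 was called higher, as was Igkv14-126, with 261, 327 and 2124 counts in WT against 946, 1115 and 6400 in Tet2het (1.67; edgeR adjusted p = 0.0280). Segments are alike in sequence and their counts may be shared.

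Genes that surround Tet2 on chromosome 3 were read on their own. Of the genes tested, 82 start within 10 Mb of the middle of Tet2, and 721 lie on the rest of chromosome 3. Among the 82, none was called with all libraries or without number 3, and 1, Gbp2b, with the block in the fit of Tet2het and WT (Tet2 is not among the 82). Without number 3 the share with an unadjusted p under 0.05 was 15.2%, beside 7.35% on the rest of the chromosome and 6.88% of all genes; with all libraries the shares were 3.66%, 1.25% and 2.12%. The median log2 difference was 0.055 near Tet2 and 0.014 on the rest of the chromosome. Gbp2b, an interferon-induced GTPase 9.09 Mb from Tet2, had no count in WT or Akita and 183, 185 and 39 in Tet2het, at least 44.7-fold higher (edgeR adjusted p = 0.0143 with that block). It had 84, 8 and 71 counts in the libraries labelled double mutant. In its cluster of guanylate-binding proteins, Gbp2 was at 7.61, 11.2 and 6.53 CPM in WT and 13.3, 12.6 and 5.89 CPM in Tet2het, Gbp3 at 36.0, 37.0 and 12.2 against 49.3, 66.3 and 11.4 CPM, and Gbp5 at 11.3, 13.3 and 5.14 against 6.92, 7.71 and 4.40 CPM. Within number 3 these 3 differed little, and none was called; they were named after their values were seen. At 18.3 Mb from Tet2, outside the window, Ifi44l, another interferon-induced gene, had no count in WT and 45, 79 and 34 in Tet2het, at least 17.6-fold higher (edgeR adjusted p = 0.0403 with that block). Ifi44l had 15, 0 and 0 counts in the libraries labelled double mutant. Its neighbour Ifi44 had 9, 23 and 11 counts in WT against 61, 70 and 53 in Tet2het, with no overlap (log2 difference 2.07, SE 0.63; edgeR adjusted p = 0.9999).

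**Figure D4:**
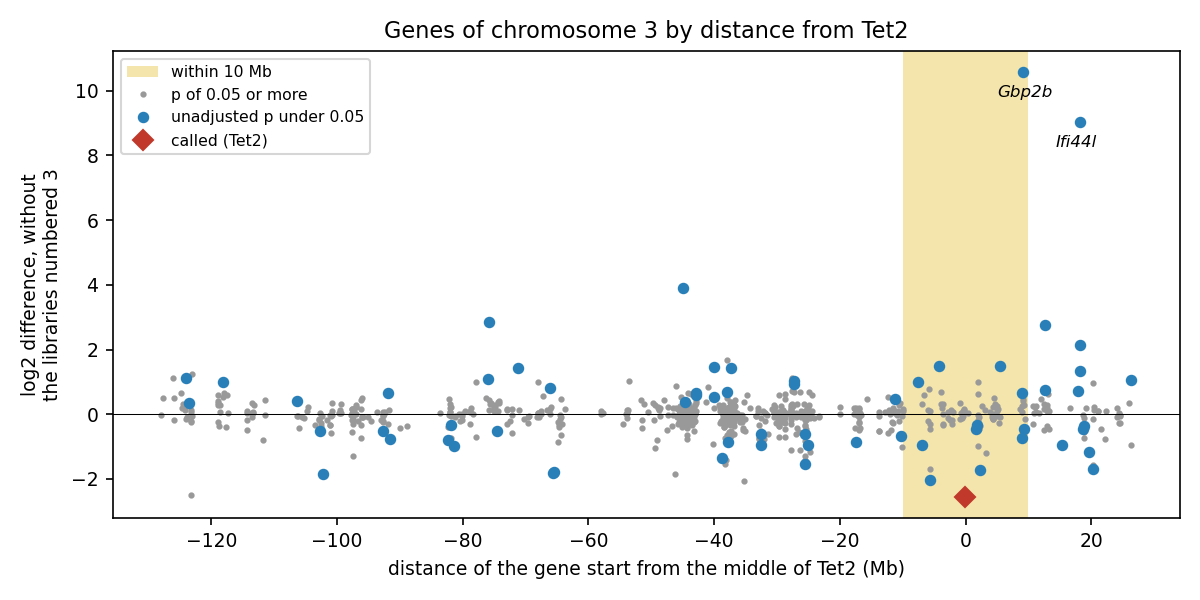
Log2 difference of Tet2het against WT without the libraries numbered 3 for genes of chromosome 3, by distance of the gene start from the middle of Tet2 in Mb; the band marks 10 Mb on either side. Blue circles are genes with an unadjusted p under 0.05 and the red diamond is Tet2, the 1 called gene of the chromosome; Gbp2b and Ifi44l, absent in WT, stand highest.

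Gene lists of blood cell types and pathways were then read. In the 26 lists no member was called with all libraries (0.0256% over all genes), and without number 3 the called members were Tet2 and Fcnb (0.146%). The lists below are therefore described by the median log2 difference of their tested members and by how many lay above 0, and no list was tested. Over all genes tested 55.2% lay above 0 with all libraries and 49.0% without number 3.

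The stem and progenitor list, genes of blood stem cells and early progenitors, had a median of -0.11 with all libraries and 0.076 without number 3, with 12 and 20 of 36 genes above 0. With all libraries its members with the smallest p were homeobox genes that keep progenitors dividing. Hoxa9 was at 6.04, 8.37 and 8.35 CPM in WT and 3.93, 5.52 and 3.38 CPM in Tet2het, and Hoxa7 at 5.54, 4.53 and 6.71 against 3.27, 3.38 and 1.84 CPM. Both were below every WT library, with log2 differences of -0.83 (SE 0.32) and -0.98 (SE 0.35), and neither was called. Myb, a transcription factor needed by early progenitors, was at 324, 307 and 354 CPM in WT and 241, 256 and 292 CPM in Tet2het, also without overlap (-0.32, SE 0.17). Of the 36 genes 4 were below every WT library and none above, beside 2.18% and 2.07% of all genes. Without number 3 the smallest p belonged to genes that were higher. Cd34, a surface protein of progenitors, was at 89.1, 110 and 105 CPM in WT and 143, 176 and 31.9 CPM in Tet2het (log2 difference 0.68, SE 0.18, without number 3), and Flt3, a receptor of early progenitors, at 74.2, 76.2 and 80.5 against 92.6, 95.4 and 34.3 CPM. For both, Tet2het was above WT in replicates 1 and 2 and below it in replicate 3. In that fit 4 members had an unadjusted p under 0.05 higher and 4 lower, beside 3.3% and 3.58% of all genes, and none was called.

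Ccnd1, the D-type cyclin that takes cells from G1 into S phase, had the smallest p in the cell cycle and replication list. It was at 25.7, 33.9 and 41.2 CPM in WT and 12.99, 19.9 and 11.1 CPM in Tet2het, so the groups did not overlap (log2 difference -1.20, SE 0.30; edgeR adjusted p = 0.916 with all libraries and 0.464 without number 3). The list as a whole had a median of 0.18 with all libraries, 34 of 37 genes above 0, and -0.0078 without number 3, 16 of 37 above 0. Mki67, a marker of dividing cells, was at 691, 786 and 1011 CPM in WT and 828, 503 and 1321 CPM in Tet2het. Its groups overlapped, with replicate 3 high in both.

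Among the myeloid lists, primary granule genes had a median of -0.28 with all libraries (3 of 16 above 0) and maturing neutrophil genes one of 0.23 (23 of 30 above 0), and 0.20 without number 3. With all libraries the second of these ran from -0.17 without WT replicate 3 to 0.69 without Tet2het replicate 3. S100a9, which binds calcium in neutrophils, stood at 6194, 6152 and 546 CPM in WT and 7749, 8579 and 895 CPM in Tet2het, and Ngp, a granule protein, at 5783, 6163 and 421 against 6713, 6891 and 537 CPM. Tet2het was above WT within each number for both genes, by much less than the gap between replicate 3 and the others. Stfa1, a cysteine protease inhibitor of neutrophils, had counts of 118, 42 and 9 in WT and of 0, 0 and 4 in Tet2het and was not called (edgeR adjusted p = 0.432 without number 3). Monocyte and macrophage genes had a median of -0.30 with all libraries and 0.13 without number 3. Members with an unadjusted p under 0.05 were 4 of 27 with all libraries, all lower, and 7 of 25 without number 3, 6 of them higher. The shares over all genes were 2.12% and 6.88%. Mrc1, the mannose receptor of tissue macrophages, was at 4.63, 2.79 and 37.9 CPM in WT and 4.26, 2.37 and 2.85 CPM in Tet2het, and Hmox1, a haem-degrading enzyme, at 26.9, 22.3 and 147 against 20.5, 22.3 and 17.7 CPM. For both, WT replicate 3 alone was high, and the other 5 libraries were close together. Ccr2, the chemokine receptor of monocytes that leave the marrow, was at 39.1, 44.7 and 33.9 against 74.1, 85.0 and 16.7 CPM, and Ctss, a lysosomal protease, at 92.2, 93.3 and 67.0 against 122, 180 and 38.8 CPM. Both were higher in Tet2het replicates 1 and 2 and lower in replicate 3, with log2 differences of 0.93 (SE 0.24) and 0.70 (SE 0.20) without number 3 and no call. Basophil, mast cell and eosinophil genes went the same way, with a median of -0.39 with all libraries, 0.27 without number 3 and -1.39 within number 3.

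Erythroid genes showed how far the replicates differed. All 29 lay above 0 with all libraries (median 0.48), but only 7 without number 3 (median -0.13), and the medians within numbers 1, 2 and 3 were -0.75, 0.81 and 0.73. Car1, a carbonic anhydrase of red cell precursors, was at 379, 123 and 1442 CPM in WT and 152, 240 and 2296 CPM in Tet2het. The summed level of the list was 2525 to 10140 CPM in WT and 3283 to 16950 CPM in Tet2het, highest in replicate 3 of both. Mitochondrially encoded genes likewise had a median of 0.17 with all libraries and -0.29 without number 3. Nuclear genes of oxidative phosphorylation had the same direction in both fits, with 40 of 40 above 0 each time (medians 0.26 and 0.23), yet the median within number 1 was -0.021. Single libraries weighed on it: the first median fell to 0.062 without Tet2het replicate 3, and the second to 0.027 without Tet2het replicate 2. Cox7c, a subunit of the last complex of the respiratory chain, was at 61.8, 56.7 and 76.2 CPM in WT and 57.9, 88.3 and 128 CPM in Tet2het. The 26 ribosomal protein genes were alike, with medians of 0.23 and 0.22 in both fits and -0.20, 0.54 and 0.22 within numbers 1 to 3.

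**Figure D5:**
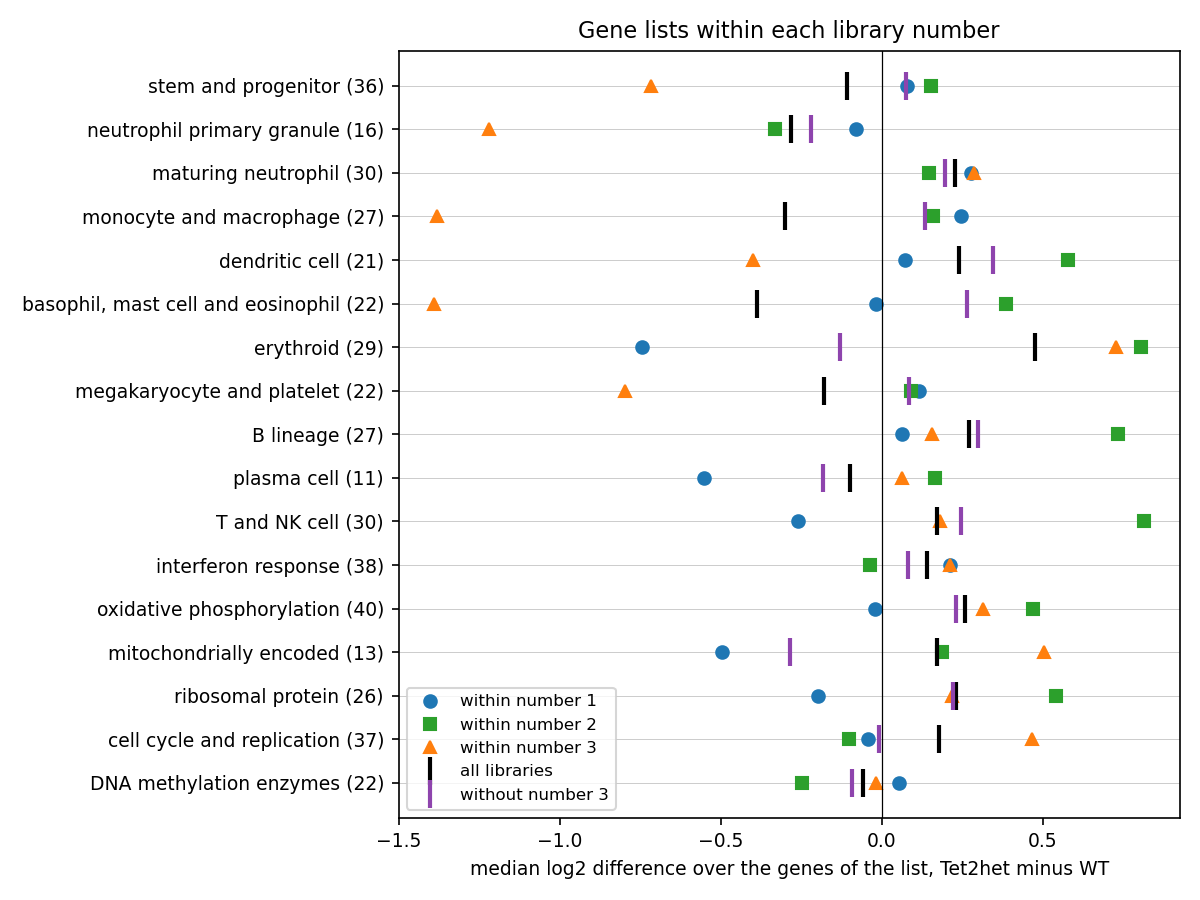
Median log2 difference of Tet2het against WT over the tested genes of 17 lists (number of genes in brackets), within replicate numbers 1, 2 and 3 (circles, squares, triangles) and in both fits (black bar with all libraries, purple bar without number 3). The 3 numbers lie on both sides of 0 for 14 of the lists, erythroid genes from -0.75 to 0.81, and on the same side for maturing neutrophil, primary granule and B lineage genes. Libraries numbered 1 and 2 correlated as well across numbers as within them, so the split between numbers 1 and 2 rests on the labels alone. Of the 9 lists not drawn, the 3 numbers lie on the same side for 3: immediate early genes, the unfolded protein response and the targets of lineage depletion.

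Megakaryocyte and platelet genes had a median of -0.18 with all libraries and 0.085 without number 3. Vwf, the platelet and vessel wall adhesion factor, which also marks platelet-biased stem cells, was at 22.7, 28.9 and 41.6 CPM in WT and 17.6, 11.0 and 14.6 CPM in Tet2het. Its groups did not overlap (log2 difference -1.10, SE 0.44), and it was not called.

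The B lineage and T and NK cell lists had medians above 0 in both fits, and the plasma cell list had medians below 0, -0.10 and -0.18, with 4 and 5 of 11 genes above 0. The B lineage list had a median of 0.27 with all libraries and 0.30 without number 3 (20 and 21 of 27 genes above 0), and it was above 0 within each number (0.064, 0.73 and 0.16). Vpreb1, a piece of the pre-B cell receptor, stood at 2.32, 1.29 and 1.39 CPM in WT and 3.03, 4.98 and 2.75 CPM in Tet2het, above every WT library (log2 difference 1.10, SE 0.41). T and NK cell genes had medians of 0.17 and 0.25 in both fits, and -0.26, 0.81 and 0.18 within numbers. Gzma, a granzyme of killer cells, was at 8.66, 9.21 and 7.68 CPM in WT and 10.1, 52.7 and 7.78 CPM in Tet2het, high in Tet2het replicate 2 alone. Without Tet2het replicate 2 the T and NK median was -0.063 with all other libraries. Dendritic cell genes had medians of 0.24 and 0.35 in both fits, but 0.073, 0.58 and -0.40 within numbers and -0.11 without Tet2het replicate 2. Pacsin1, an endocytosis adaptor of plasmacytoid cells, was at 8.71, 5.73 and 3.93 CPM in WT and 11.5, 13.9 and 7.68 CPM in Tet2het, higher within each number. None of these genes was called. What part the makeup of cells has in these differences was not tested.

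No member of the pathway lists was called in either fit. The interferon response list had a median of 0.14 with all libraries and 0.081 without number 3, with 5 of 38 genes above every WT library and 1 below, beside 2.07% and 2.18% of all genes. Ifit3, an antiviral protein, was at 2.57, 2.19 and 1.51 CPM in WT and 3.65, 4.33 and 3.82 CPM in Tet2het (log2 difference 0.91, SE 0.34), while Cxcl10, a chemokine induced by interferon, was at 158, 198 and 30.5 against 128, 148 and 63.0 CPM, with overlap. Genes of the unfolded protein response had a median of -0.13 with all libraries (6 of 20 above 0) and -0.14 without number 3. The first ran from -0.38 without WT replicate 3 to 0.10 without Tet2het replicate 3, and was 0.0074 without WT replicate 2. Hspa5, the chaperone of the endoplasmic reticulum, was at 2742, 2720 and 1763 CPM in WT and 2223, 2022 and 1593 CPM in Tet2het, lower within each number (-0.31, SE 0.29). Inflammatory cytokine and NF-kB genes had a median of 0.027 with all libraries and 0.12 without number 3, the first running from -0.15 without WT replicate 3 to 0.27 without Tet2het replicate 3. Glycolysis genes had medians of 0.012 and 0.013, the first running from -0.19 without Tet2het replicate 1 to 0.14 without Tet2het replicate 3. The 35 tested partners of Tet2 and genes of myeloid tumours had medians of -0.044 and -0.012. The 9 targets of lineage depletion had a median of 0.45 with all libraries and 0.088 without number 3; Cd4, a T cell co-receptor, was at 7.35, 4.78 and 6.47 CPM in WT and 8.91, 10.4 and 7.39 CPM in Tet2het. Their summed level was 476 to 1166 CPM in WT and 607 to 1328 CPM in Tet2het, so transcripts of the depleted lineages were present in both groups.

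Beside these lists, the uncalled genes with the smallest p lower in Tet2het were mostly of low level. Slc7a14, of the family of cationic amino acid transporters, was at 13.4, 12.2 and 7.68 CPM in WT and 2.42, 4.81 and 3.91 CPM in Tet2het (log2 difference -1.58, SE 0.34). Thnsl1, a relative of bacterial threonine synthase, was at 2.22, 2.39 and 3.51 against 0.663, 0.593 and 0.966 CPM, and Zfp111, a zinc finger protein, at 3.32, 3.98 and 4.17 against 1.61, 1.48 and 0.821 CPM. The groups were apart for all 3, with edgeR adjusted p = 0.539 each with all libraries. Among the higher, Ftl1-ps1, a ferritin light chain copy annotated as coding, had 6, 3 and 7 counts in WT against 3180, 4 and 5049 in Tet2het, so replicate 2 was like WT and the others were not.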

How the data were processed

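RNA-seq was made from lineage-negative bone marrow, and each deposited value is a whole-number read count per gene and library. Per the submitters' processing notes, the authors used bcl2fastq, Trimmomatic 0.32 and TopHat2 2.1.1 with the genome build GRCm38 to make the deposited counts; which program counted the reads, and whether it used strand or reads with several matches, is not stated there. Of 31060 gene identifiers, 25042 matched GENCODE release M21 by versioned identifier and 30875 once the version was dropped. Columns for 11 of the 12 labelled samples were used; the fourth double mutant sample was not analysed here, and 1 further column of the table, whose name matched no single label, was used in no step.

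Counts were fitted with edgeR 4.0.16 in R 4.3.3: low counts were filtered by filterByExpr, libraries scaled by TMM, and all 4 groups fitted together by robust quasi-likelihood, with Tet2het minus WT as the contrast. A gene was called at a Benjamini-Hochberg adjusted p under 0.05 over all genes tested. The same fit was made without the libraries numbered 3. A standard error (SE) is the log2 difference over the square root of F. CPM are counts over the TMM-scaled library size. Differences within a number used log2 CPM with a prior count of 2. The floor of 3 counts and the 95% exact intervals of count ratios cover counting error only. The procedure was tested on simulated data. Alternatives were RLE and upper quartile factors, no filter or a mean of 5 CPM, DESeq2 1.42.0, limma 3.58.1 (voom), a fit of only both groups, the replicate number as a block, no robust step and each library left out. The numbers were taken to pair the libraries, since the deviations of libraries 1, 2 and 3 of both groups from their group's mean had correlations of 0.501, 0.485 and 0.791; numbers 1 and 2 were not told apart by this, with up to 0.691 across them.

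Members and lists were chosen with earlier results of these data known. The rule for named genes took Tet2 and the DNA methylation genes, every gene called in a fit, the 10 uncalled genes in each direction with the smallest p and a mean of at least 1 CPM, up to 5 genes in each direction near Tet2, and of each list the 2 members with the smallest p and the 2 with the highest level; the text gives a part of these. Parents of pseudogenes (aligned with BLAST 2.17.0), Nlrp1a, Eif3j1, Gbp2, Gbp3, Gbp5, Klk1b27, Cd34, Flt3, Ccr2 and Ctss were named after their values were seen. Promoters are the RefSeq windows of 250 bases before each start site. Of the genes called without the libraries numbered 3, 1 is counted among the calls but not reported here.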

Additional observations from a re-analysis of the deposited data

How the results depend on the processing

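With all libraries the count of 4 called genes was 3 to 6 under RLE or upper quartile factors, no filter, the filter of 5 CPM, limma voom and no robust step. It was 45 with DESeq2, 2 with only the Tet2het and WT libraries, 8 with the replicate block in all groups, 33 with the replicate block in only those libraries (chosen after seeing the data), 22 without the libraries numbered 3 and 1 to 7 with single libraries left out. The Tet2 difference of -2.22 was called at -2.21 with DESeq2, at -2.55 without the libraries numbered 3 and at -2.11 with that last block, and ran from -2.54 to -1.85 with single libraries left out. Without number 3 the count of 22 was 186 with no filter, 7 with the filter of 5 CPM, 130 with DESeq2, 8 with the replicate block and 6 to 286 with single libraries left out, where Tet2 ran from -2.77 to -2.28 and was called in 5 of 8. The cause was not tested. Atp6v0c-ps2 was called under all 22 alternatives with all libraries and Gm14292 under 10. A change of sign counted as a reversal where either value was called or both lay over 1 SE from 0. By this rule 1 of 6425 values of genes other than Tet2 reversed. Fn1 without number 3, at 0.45, was -0.39 without Tet2het replicate 1 and 0.97 without Tet2het replicate 2. Of 520 list medians 29 moved by more than the SD of the 3 within-number medians. Depth limits what 0 counts can tell to levels above 0.142 to 0.181 CPM.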
